A study of Mus musculus with 18 samples.

Results

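The genes described here code for the surface molecules through which leukocytes attach to the wall of a vessel and leave the blood, and they were followed in mouse gastrocnemius, a calf muscle, after local induction of endoplasmic reticulum (ER) stress. They were chosen by name, with earlier results of these data known. The set holds 5 ligands of the endothelium (Icam1, Icam2, Vcam1, Sele and Selp) and 5 partners on leukocytes (Selplg, Itgam, Itgb2, Itgal and Itga4). All 10 were measured, among 22180 genes in all, each as the mean of the probesets that carry its symbol alone, which was 1 probeset for every gene except Selplg, with 2. In each of 9 wild-type (WT) mice, 1 gastrocnemius was injected with 30 µg tunicamycin in 30 µL, a drug that blocks N-linked glycosylation in the ER, and the gastrocnemius of the other leg with saline, and both were removed after 24 h. This gave 9 tunicamycin and 9 saline arrays, read as log2 signals. The labels describe female mice of mix C57Bl6/J-SV129 background, whereas the study's animal section names male C57BL/6J mice bought at 8 weeks of age. Each mouse served as its own control, so a response shared by both legs, such as one to the injection itself, cannot be seen in the difference.

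Leukocytes leave the blood in steps. Selectins on activated endothelium catch passing cells, which roll along the wall. Chemokines then switch leukocyte integrins to their binding form, and the integrins hold the cell by binding immunoglobulin-family ligands such as ICAM-1 and VCAM-1 before it crosses the wall. P-selectin (Selp) is stored in endothelial granules and also in platelets, E-selectin (Sele) is made by endothelium after cytokine exposure, and both bind PSGL-1, the product of Selplg. ICAM-1 binds the integrins LFA-1, made of the Itgal and Itgb2 chains, and Mac-1, made of the Itgam and Itgb2 chains. ICAM-2 binds LFA-1, and VCAM-1 binds the integrin VLA-4, whose alpha chain is Itga4. None of these genes belongs to a single cell type: Icam1 is also made by leukocytes and other cells, Vcam1 by stromal and muscle precursor cells.

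Promoter windows are shown for Selp, Itga4 and Icam1, the genes that passed the test below. The reference table of RefSeq (build GRCm38.p6) held a window of 300 bases around the start for 5 of the 10 genes. Each window is written 5′ to 3′, and capitals mark matches on either strand to an NF-kB-like pattern (GGG, any 5 bases, then CC) or to GAGGAA, a pattern of ETS factors such as PU.1, of which these 3 windows held none.
Selp, chr1:164115014-164115313, plus strand: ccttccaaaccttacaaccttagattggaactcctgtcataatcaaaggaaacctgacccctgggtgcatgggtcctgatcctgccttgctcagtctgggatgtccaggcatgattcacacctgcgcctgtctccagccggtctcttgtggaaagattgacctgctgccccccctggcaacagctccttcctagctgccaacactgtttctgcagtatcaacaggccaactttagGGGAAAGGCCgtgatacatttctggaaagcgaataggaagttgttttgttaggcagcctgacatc
Itga4, chr2:79255176-79255475, plus strand: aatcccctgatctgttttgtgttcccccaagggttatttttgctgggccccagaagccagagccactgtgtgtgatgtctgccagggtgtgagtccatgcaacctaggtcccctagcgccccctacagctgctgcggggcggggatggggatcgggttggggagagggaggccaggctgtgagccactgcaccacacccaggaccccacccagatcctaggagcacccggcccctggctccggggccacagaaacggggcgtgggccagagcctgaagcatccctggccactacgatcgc
Icam1, chr9:21015690-21015989, plus strand: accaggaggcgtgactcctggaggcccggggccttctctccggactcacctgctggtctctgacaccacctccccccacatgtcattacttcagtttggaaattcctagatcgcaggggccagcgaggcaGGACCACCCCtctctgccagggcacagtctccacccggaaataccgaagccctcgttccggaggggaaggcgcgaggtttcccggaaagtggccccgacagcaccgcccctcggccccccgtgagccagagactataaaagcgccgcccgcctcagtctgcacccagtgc
The Selp window held 1 match to the NF-kB-like pattern, at -15 to -6 from the start, the Icam1 window held 1 at -120 to -111 on the other strand, and the Itga4 window held none. The NF-kB-like pattern occurred in 4 of the 5 windows (Sele, Selp, Itgam, where matches on both strands overlap, and Icam1) and in 50.8% of 32851 windows of the same length. GAGGAA occurred in 2 of the 5 (Sele and Itgam) and in 28.3% of all windows. TGACGCAA or TGATGCAA, patterns bound by ATF4, a transcription factor of the ER stress response, occurred in 0 of the 5 and in 1.37% of all windows. A match to so short a pattern describes the letters only.

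Before the members are considered, 2 facts on the samples bear on all of them. Every tunicamycin leg had a higher signal of the ER chaperone gene Hspa5 than the saline leg of the same mouse, but by 0.58 and 0.73 in mice 1 and 9 against 1.32 to 2.05 in mice 2 to 8. Both legs of mouse 9 also had a low signal of Xist, a transcript of the inactive X chromosome (4.79 in the saline and 4.90 in the tunicamycin leg, where the remaining mice had 9.22 to 9.52). This is at odds with its label as female, although its Y-linked genes Kdm5d, Uty and Eif2s3y (2.78 to 3.47) lay within the range of the remaining mice (2.51 to 3.53). High Xist with low Y-linked signals in mice 1 to 8 matches the female label rather than the males named in the study. Results are given with and without mice 1 and 9, a choice made after the data were seen. The fewest of the 10 genes were higher in these same mice, so values without them are a description only. Array medians ran from 4.99 to 5.07 and pairs of arrays correlated at 0.982 to 0.991. The muscle fibre markers were high in both groups, with a list mean of 11.65 to 11.83 in each.

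All 10 adhesion genes had a mean signal that was higher in the tunicamycin legs, and 3 of them rose past the threshold of an adjusted p under 0.05: Selp, Itga4 and Icam1. None fell. Of all genes, 4.72% rose by the same test. The 10 were chosen with earlier results of these data known, so the shares of all genes given here are a description only. The changes of the 5 ligands ran from 0.05 (Icam2) to 1.09 (Selp) on the log2 scale and those of the 5 partners from 0.16 (Itgal) to 0.65 (Itgam), and the median was 0.25 in both sets against 0.0064 over all genes. A change above 0 was found for 52.7% of all genes. By unadjusted limma p under 0.05, 9 of the 10 were higher, against 11.9% of all genes. The saline and tunicamycin arrays overlapped for each of the 10 genes, whereas 0.564% of all genes had groups that did not overlap. Of the 10, 9 were higher in 7 or more of 9 mice, all but Icam2, as were 18.9% of all genes. Without mice 1 and 9 the number that rose was 8 of 10, Icam2 and Vcam1 being the exceptions, against 7.05% of all genes. With 1 mouse left out it was 7 of 10 without mouse 1 (5.37% of all genes) or mouse 9 (6.03%), 4 without mouse 4 (2.71%), and 2, Selp and Itga4, without mouse 2 (3.08%), 3 (2.54%), 5 (2.76%), 6 (2.79%), 7 (2.81%) or 8 (3.75%). It also depended on the fit. It was 2 after centring of the arrays on their medians (3.62%) and at the probeset level (1.93%), 3 with the brightest probeset per gene (4.83%) and with a trended and robust prior (5.14%), 5 without the mouse block (4.21%) and after a further quantile normalization (5.0%), 6 among genes above the median signal (10.4%) and 7 with array weights (6.38%). The fit above the median signal does not test Sele and Itgal.

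**Figure D1:**
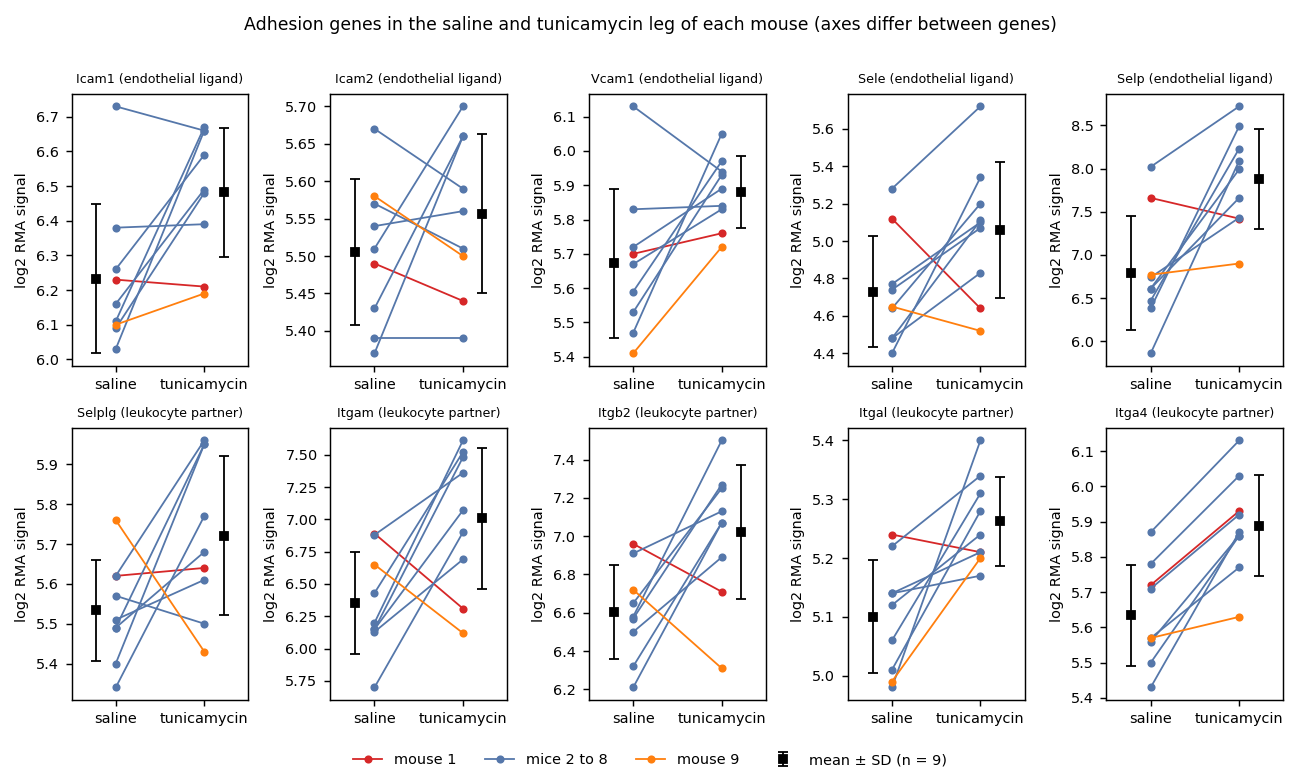
Signal of each adhesion gene in the saline and the tunicamycin leg, with 1 line per mouse and the vertical axis in log2 RMA units (scaled separately for each gene). Black squares are means ± SD of 9 mice. Selp lines climb most, Itga4 lines climb in every mouse, and the lines of mice 1 and 9 run downward for Sele, Itgam and Itgb2.

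Selp, the rolling receptor of endothelium and platelets, had the largest change of the 10. In saline legs its log2 signal was lowest at 5.86, with a median of 6.61 and a highest value of 8.02, and in tunicamycin legs the corresponding values were 6.90, 7.99 and 8.72. The saline legs of mice 4 and 1 (8.02 and 7.66) stood above the other saline legs, and 4 of 9 tunicamycin legs exceeded the highest of them. Within mice the change was 1.09 ± 0.23 (limma SE, n = 9), a 2.13-fold rise with adjusted p = 0.0107, and it was positive in 8 of 9 mice. It was largest in mice 2 and 6 (2.22 and 2.11) and negative in mouse 1 (-0.24). The call held when any single mouse was left out, with changes from 0.95 to 1.26, and the change was 1.42 without mice 1 and 9.

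Sele, the cytokine-induced selectin of endothelium, had a dimmer signal, with a lowest, median and highest value of 4.40, 4.65 and 5.28 in saline legs and 4.52, 5.10 and 5.72 in tunicamycin legs. The groups overlapped widely, and 2 tunicamycin legs exceeded every saline leg. Its change was 0.33 ± 0.11 with a 95% interval of 0.08 to 0.58, positive in 7 of 9 mice and largest in mouse 6 (0.94), and it did not pass (adjusted p = 0.0858). The exceptions were mice 1 (-0.49) and 9 (-0.13). Without both the change was 0.51, from 0.33 to 0.94 in the 7 other mice (adjusted p = 0.00101), and the gene also passed without mouse 1 (0.0105) or mouse 9 (0.0489) alone. Since the mice left out are those where Sele was lower, these values are a description only.

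Selplg codes for the mucin on leukocytes that both selectins bind. Its saline values had a lowest, median and highest value of 5.34, 5.51 and 5.76 and its tunicamycin values of 5.43, 5.68 and 5.96. The change was 0.19 ± 0.083 (95% interval 0.01 to 0.37), positive in 7 of 9 mice, and did not pass (adjusted p = 0.173). It passed without mouse 9 (0.0371) and without mice 1 and 9 (change 0.29, adjusted p = 0.0232), given as a description only. The probesets of the gene differed in size of change, at 0.08 ± 0.080 and 0.30 ± 0.14, and neither passed at the probeset level.

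Among the immunoglobulin-family ligands, Icam1, the cytokine-responsive ligand of LFA-1 and Mac-1, rose. Its signal had a lowest, median and highest value of 6.03, 6.16 and 6.73 in saline legs and 6.19, 6.49 and 6.67 in tunicamycin legs. No tunicamycin leg exceeded the saline leg of mouse 4, the highest of all arrays, and 5 saline legs lay below every tunicamycin leg. The change was 0.25 ± 0.076, 1.19-fold, positive in 7 of 9 mice and largest in mice 8 and 6 (0.63 and 0.56), with adjusted p = 0.0496. This call lay at the threshold: adjusted p was 0.0757 with no block for the mouse, 0.0698 after centring of the arrays on their medians, 0.0979 at the probeset level, and 0.0551 to 0.115 without mouse 2, 3, 5, 6, 7 or 8.

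Vcam1, the ligand of VLA-4, did not pass. Its saline legs had a lowest, median and highest value of 5.41, 5.67 and 6.13 and its tunicamycin legs of 5.72, 5.89 and 6.05, so that the tunicamycin legs were the more alike (SD 0.10 against 0.22). As for Icam1, the highest array was the saline leg of mouse 4, and 7 of 9 saline legs lay below every tunicamycin leg. The change was 0.21 ± 0.071 (95% interval 0.06 to 0.36, adjusted p = 0.0749), positive in 8 of 9 mice, with -0.18 in mouse 4. Without mouse 4 the gene passed (0.0401), whereas without mice 1 and 9 it did not (0.22, adjusted p = 0.110).

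Icam2, a ligand that resting endothelium carries without induction, had nearly the same values in both groups. Saline legs had a lowest, median and highest value of 5.37, 5.51 and 5.67 and tunicamycin legs of 5.39, 5.56 and 5.70. The change was 0.05 ± 0.051, positive in 5 of 9 mice (adjusted p = 0.579), with a 95% interval of -0.06 to 0.16.

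Of the integrin chains, Itga4, the alpha chain of VLA-4 on monocytes and lymphocytes, rose in all 9 mice, as did 1.91% of all genes. Its signal had a lowest, median and highest value of 5.43, 5.57 and 5.87 in saline legs and 5.63, 5.87 and 6.13 in tunicamycin legs. The change was small but even, at 0.25 ± 0.045, 1.19-fold, adjusted p = 0.00516, with single mice between 0.05 and 0.44. Mice 1 and 9, in which the fewest members were higher, gave 0.21 and 0.05. The call held when any single mouse was left out, with adjusted p up to 0.0175. A further probeset that the annotation assigns to Itga4 and to the neighbouring gene Cerkl together was not counted for Itga4, and it did not change (-0.03 ± 0.068, adjusted p = 0.847).

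Itgam and Itgb2, the chains of Mac-1 on neutrophils, monocytes and macrophages, had the next largest changes after Selp. Itgam had a lowest, median and highest value of 5.70, 6.20 and 6.89 in saline legs and of 6.12, 7.07 and 7.61 in tunicamycin legs, and 6 tunicamycin legs exceeded every saline leg. For Itgb2, the beta chain that Mac-1 and LFA-1 share, these values were 6.21, 6.58 and 6.96 in saline legs and 6.31, 7.07 and 7.50 in tunicamycin legs, again with 6 tunicamycin legs above all saline legs. Both missed the threshold, Itgam at 0.65 ± 0.20 (1.57-fold, 95% interval 0.22 to 1.08, adjusted p = 0.0531) and Itgb2 at 0.42 ± 0.13 (1.34-fold, 0.14 to 0.70, adjusted p = 0.0560), each positive in 7 of 9 mice.

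The 2 chains moved the same way in 9 of 9 mice, and the change of Itgam was the larger in size in each. Itgam changed by 0.48 to 1.41 in mice 2 to 8, by -0.58 in mouse 1 and by -0.53 in mouse 9. Itgb2 changed by 0.21 to 0.93, -0.25 and -0.41 in the same animals. Without mice 1 and 9 Itgam changed by 1.00 (adjusted p = 1.70e-04) and Itgb2 by 0.64 (adjusted p = 4.89e-04), and both also passed without mouse 1 alone or mouse 9 alone. These were the mice in which both chains were lower, left out after the values were seen, so these values are a description only.

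Itgal, the alpha chain of LFA-1 and the integrin chain most typical of lymphocytes, had a dim and narrow signal, with a lowest, median and highest value of 4.98, 5.12 and 5.24 in saline legs and 5.17, 5.24 and 5.40 in tunicamycin legs. It was higher in 8 of 9 mice, 7 saline legs lay below every tunicamycin leg, and the change was 0.16 ± 0.050 (95% interval 0.05 to 0.27, adjusted p = 0.0553). Unlike its beta chain, it was higher in mouse 9 (0.21), and it followed the sign of Itgb2 in 8 of 9 mice. It passed without mouse 1 (0.0346) and without mice 1 and 9 (0.18, adjusted p = 0.0490), given as a description only.

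A second test that uses the 9 within-mouse changes of 1 gene alone, the exact two-sided sign-flip permutation test with 512 sign patterns and a smallest p of 0.00391, gave p = 0.00391 for Itga4, 0.00781 for Itgal, 0.0117 for Selp, 0.0273 for Icam1, 0.0352 for Vcam1, 0.0430 for Itgb2, 0.0469 for Itgam, 0.0508 for Sele, 0.0820 for Selplg and 0.285 for Icam2, none of them adjusted. By this test 10.6% of all genes were higher at an unadjusted p under 0.05.

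**Figure D2:**
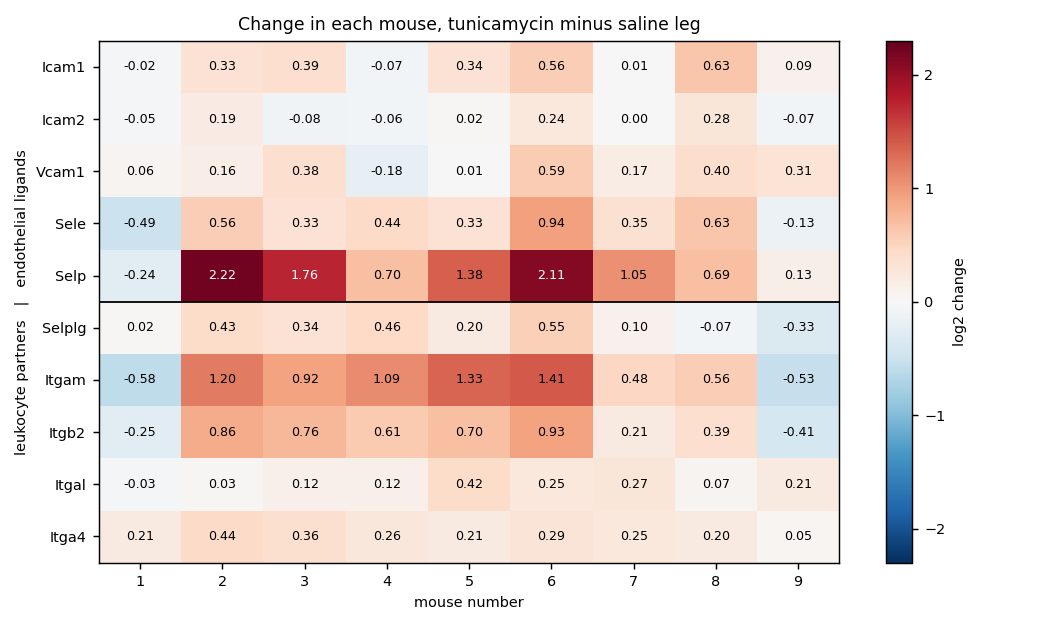
Within-mouse log2 change (tunicamycin minus saline leg) of each adhesion gene (rows, ligands above the line and partners below it) in each mouse (columns), with red for higher and blue for lower in the tunicamycin leg. The columns of mice 1 and 9 are pale or blue, and Selp in mice 2 and 6 holds the highest values, 2.22 and 2.11.

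Read by animal, all 10 genes were higher in the tunicamycin leg of mice 2, 5, 6 and 7, and 9 of 10 in mice 3 and 8. In mouse 4 all 5 partners were higher but only 2 of 5 ligands, Sele and Selp. Mouse 6 had the highest median over the 10 genes, 0.58. In mouse 1 only 3 of 10 genes were higher (Vcam1, Selplg and Itga4) and in mouse 9 only 5 of 10 (Icam1, Vcam1, Selp, Itgal and Itga4), with medians of -0.04 and -0.01. These are the mice with the smallest changes of Hspa5.

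The next comparison set ligands against partners within mice. The change of Selp exceeded that of Selplg in 8 of 9 mice, by 0.90 ± 0.67 (SD, n = 9), and that of Sele exceeded Selplg in 6 of 9, by 0.14 ± 0.33. Icam1 changed less than Itgam and less than Itgb2 in 6 of 9 mice, with mean differences of -0.40 ± 0.67 and -0.17 ± 0.40, and Icam2 changed less than Itgal in 7 of 9 (-0.11 ± 0.21). For Icam1 and Itgal (0.09 ± 0.28) and for Vcam1 and Itga4 (-0.04 ± 0.26) the sign varied between mice. Probesets can compress changes to different extents, so these differences were described and not tested.

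It was then asked whether a mouse with a larger change of a ligand also had a larger change of its partner, over 7 known binding pairs. Among these 7 pairs, Pearson's r was highest for Selp with Selplg (0.75, exact permutation p = 0.0217, adjusted over the 7 relations p = 0.152; Spearman's rho 0.75, exact permutation p = 0.0255, adjusted p = 0.178). It was 0.77 without mice 1 and 2, the mice farthest from the median Selp change, and 0.62 without mice 1 and 9. Sele with Selplg gave r = 0.63 (exact p = 0.0680, adjusted p = 0.238) and rho = 0.55 (exact p = 0.133, adjusted p = 0.415), with r = 0.59 without mice 1 and 6 and 0.35 without mice 1 and 9. Icam1 gave r = 0.56 with Itgb2 (exact p = 0.120, adjusted p = 0.280; rho 0.50, exact p = 0.178, adjusted p = 0.415) and r = 0.49 with Itgam (exact p = 0.184, adjusted p = 0.322; rho 0.43, exact p = 0.250, adjusted p = 0.437), which were 0.61 and 0.55 without mice 1 and 4 and 0.37 and 0.17 without mice 1 and 9. The remaining relations lay near 0: Icam1 with Itgal had r = 0.10 (exact p = 0.800, adjusted p = 0.944; rho 0.08, exact p = 0.843, adjusted p = 1.0), Icam2 with Itgal r = -0.08 (exact p = 0.834, adjusted p = 0.944; rho 0.02, exact p = 0.982, adjusted p = 1.0) and Vcam1 with Itga4 r = 0.03 (exact p = 0.944, adjusted p = 0.944; rho 0.00, exact p = 1.0, adjusted p = 1.0). No relation passed after adjustment. Genes that do not bind each other had r as high or higher over the same 9 mice, given here as a description chosen after the values were seen: Selp had 0.90 with Itgb2, 0.86 with Itgam and 0.78 with Itga4, and Sele had 0.85 with Itgam and 0.83 with Itgb2.

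**Figure D3:**
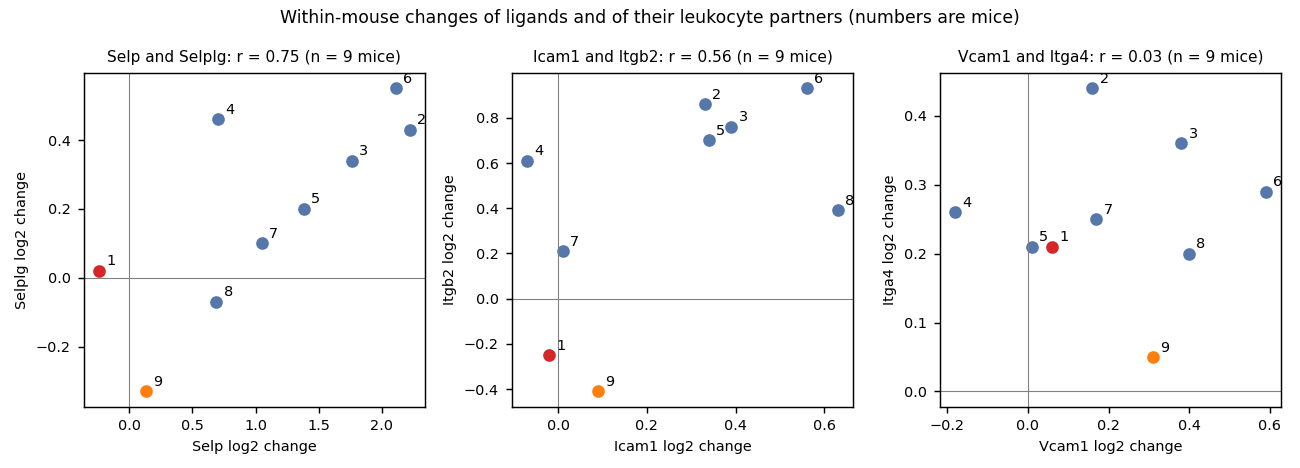
Within-mouse log2 changes of a ligand (horizontal axis) and of its leukocyte partner (vertical axis) for Selp and Selplg, Icam1 and Itgb2, and Vcam1 and Itga4, with each point labelled by mouse number and grey lines at 0. Points climb together for Selp and Selplg (r = 0.75) and show no trend for Vcam1 and Itga4 (r = 0.03).

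The genes around these members were read from lists of the adhesion pathway, beside the 4.72% of all genes that rose and the 6.15% that fell. Of 10 further integrin subunits 0 rose and 0 fell in limma (0 past the adjusted threshold in each direction), and the list median was 0.031. Itgb1, the beta chain that pairs with Itga4 in VLA-4, was at 0.24 ± 0.076 (adjusted p = 0.0585), and the subunits Itgax and Itgad, which pair with Itgb2, were at 0.03 ± 0.073 and 0.04 ± 0.071. Without mice 1 and 9, 2 of these 10 rose, and 1 rose without either mouse alone. Of 16 further selectin ligands and enzymes that build the selectin-binding glycans 3 rose and 1 fell, with a median of 0.050. Those that rose were Cd44, a hyaluronan receptor that also binds E-selectin (0.89 ± 0.21, adjusted p = 0.0175), the fucosyltransferase Fut4 (0.22 ± 0.051) and the sialyltransferase St3gal4 (0.20 ± 0.047), and the sialyltransferase St3gal6 fell (-0.15 ± 0.046, adjusted p = 0.0470). The fall of St3gal6 was lost without the mouse block, after a further quantile normalization, at the probeset level and without any single mouse but mouse 9. Those that rose numbered 1 without mouse 3 and 2 without mouse 4, 5 or 6.

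Among 15 molecules of transmigration and junctions 2 rose and 0 fell, with a median of -0.0028. These were Cd47, a surface protein of most cells (0.32 ± 0.054, higher in 9 of 9 mice), and its receptor on myeloid cells, Sirpa (0.44 ± 0.086, higher in 8 of 9), whereas the junction gene Cdh5 was at 0.06 ± 0.060 and Pecam1 at -0.03 ± 0.045. Of 14 genes that switch integrins to the binding form 5 rose and 0 fell, with a median of 0.22. First by p were the adaptor Fyb (0.49 ± 0.091), the exchange factor Vav1 (0.45 ± 0.10), the kindlin of blood cells Fermt3 (0.24 ± 0.056, higher in 9 of 9 mice) and talin, Tln1 (0.30 ± 0.072). The number was 3 of 14 without mouse 2, 3, 4, 5 or 6, 8 without mouse 9 and 10 without mice 1 and 9. Of 12 NF-kB pathway genes, several of which control adhesion genes in endothelium, 5 rose and 0 fell, with a median of 0.24. Relb (0.32 ± 0.047) and Rela (0.22 ± 0.045), which code for subunits of the factor, and the inhibitor Nfkbie (0.29 ± 0.066) were higher in 9 of 9 mice and Tnfaip3, a feedback inhibitor (0.47 ± 0.11), in 7 of 9.

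Signals that induce or trigger adhesion were also followed. Of 12 chemokines 5 rose and 0 fell (median 0.17), led by the neutrophil attractant Cxcl2 (0.60 ± 0.10), the monocyte attractant Ccl7 (0.97 ± 0.18), the lymphocyte attractant Cxcl10 (0.32 ± 0.067) and Ccl3 (1.17 ± 0.26). Of 13 cytokines and receptors that act on endothelium 5 rose and 0 fell (median 0.27), among them the signalling adaptor Myd88 (0.59 ± 0.11), Tnf, a classical inducer of Sele, Icam1 and Vcam1 (0.42 ± 0.087), Il6 (0.47 ± 0.10) and the TNF receptor Tnfrsf1a (0.28 ± 0.078). Mean saline signals lay below every array median for Il6 (3.14), Ccl3 (4.71), Tnf (4.90) and Cxcl10 (4.93). The chemokines that rose numbered 5 or 6 with any single mouse left out and 6 without mice 1 and 9. Among genes above the median signal 2 rose, but that fit does not test dim genes such as Cxcl10. The cytokine list was less even, with 3 of 13 without mouse 2, 3, 4, 5, 6 or 8, after centring and at the probeset level. It gave 7 without mouse 9 or without mice 1 and 9. Among genes above the median signal, a fit that leaves out Il6 and Tnf, 3 of this list rose. The NF-kB list gave 4 to 7 of 12 with any single mouse left out and 7 without mice 1 and 9.

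**Figure D4:**
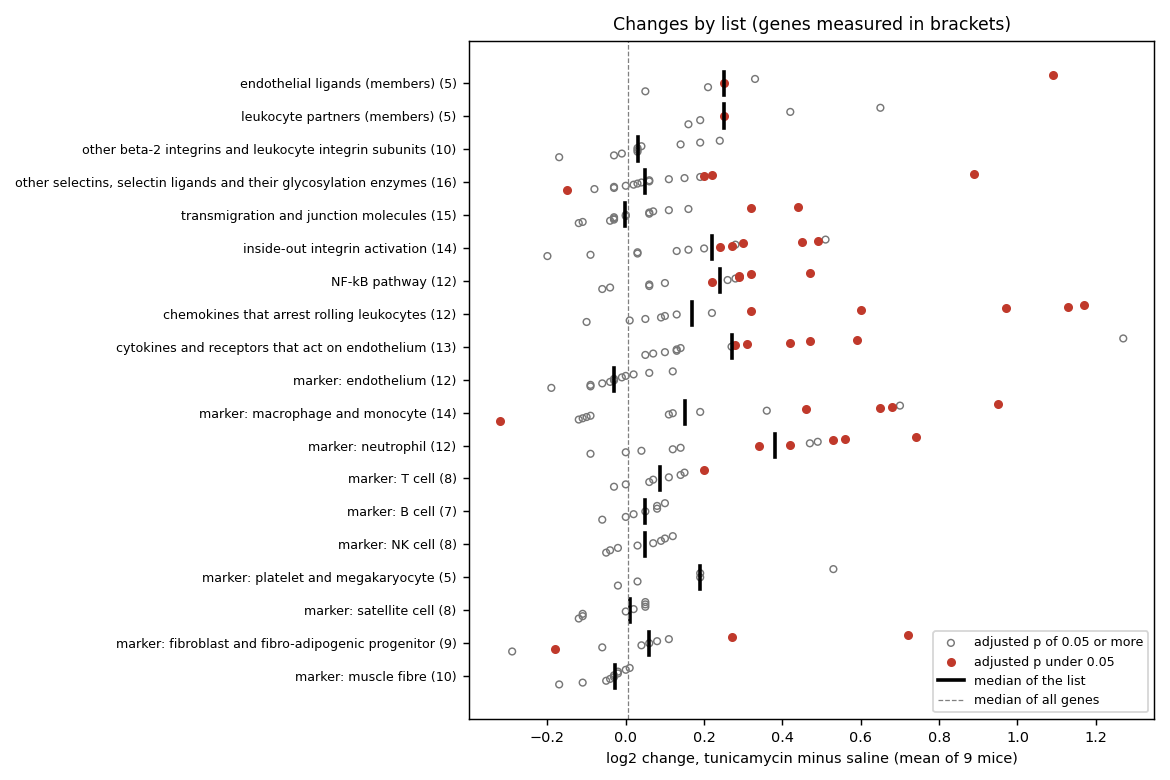
Mean log2 change over 9 mice of every measured gene in the adhesion, pathway and marker lists, 1 row per list. Filled red points passed an adjusted p under 0.05, open points did not, black bars are list medians and the dashed line is the median of all genes, 0.0064. Filled points lie mostly right of 0 in the pathway, macrophage and neutrophil rows, and the endothelium and muscle fibre rows hold none.

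Because the members are made by different cells, marker genes of those cells were read in the same arrays. In whole muscle, more cells of a type and more RNA per cell cannot be told apart. Of 12 endothelial markers 0 rose and 0 fell in limma (median -0.030), Flt1 being nearest to the threshold (-0.19 ± 0.062, adjusted p = 0.0612), and the list mean ran from 7.17 to 7.38 in saline legs and from 7.02 to 7.33 in tunicamycin legs. It was higher in the tunicamycin leg in 3 of 9 mice, and 1 marker fell after centring, without mouse 8, among genes above the median signal, with array weights and with the trended prior.

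Of 14 macrophage and monocyte markers 4 rose and 1 fell (median 0.15). Those that rose were the Fc receptor Fcgr1, Adgre1 (which codes for F4/80), Cd68 (0.95 ± 0.26) and the lysozyme gene Lyz2 (0.46 ± 0.12), and the scavenger receptor gene Cd163 fell (-0.32 ± 0.062, lower in 9 of 9 mice). A change above 0 was found for 9 of the 14 markers. Below 0 without passing were Csf1r (-0.11 ± 0.058), Mertk (-0.09 ± 0.048), C1qa (-0.12 ± 0.073) and C1qc (-0.10 ± 0.089). The list mean ran from 6.19 to 6.80 in saline and from 6.38 to 7.07 in tunicamycin legs, was higher in 7 of 9 mice, and changed by -0.04 in mouse 1 and -0.34 in mouse 9, the mice where Itgam and Itgb2 were lower. Of 12 neutrophil markers 5 rose and 0 fell (median 0.38), first by p Mmp8, Csf3r, the receptor of the growth factor G-CSF (0.74 ± 0.21), S100a8 (0.34 ± 0.098) and Mmp9 (0.42 ± 0.12), while the defining surface marker Ly6g was at -0.09 ± 0.096. Their list mean ran from 4.36 to 4.75 in saline legs, below every array median, and from 4.52 to 5.12 in tunicamycin legs. This mean was higher in 7 of 9 mice, and changed by -0.09 in mouse 1 and -0.12 in mouse 9. Itgam and Itgb2 moved with both lists, and the part of these cells in their change was not tested. These marker counts rested on few animals. The neutrophil markers that rose numbered 0 without mouse 2, 3, 4, 5, 6 or 7 and at the probeset level, 1 without mouse 8 and with the trended prior, 2 after centring, 3 after a further quantile normalization, and 7 without mouse 9, without mice 1 and 9 and with array weights. Among genes above the median signal 2 rose, but that fit does not test dim markers such as S100a8 and Mmp8. The macrophage markers that rose numbered 2 without mouse 2, 4, 5 or 6, at the probeset level and with the trended prior, 6 without mouse 1 or mouse 9 and with array weights, and 8 without mice 1 and 9, and the fall of Cd163 was lost without the mouse block.

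Markers of other cells that carry these molecules were read likewise. Of 8 T cell markers 1 rose, Cd4 (0.20 ± 0.057, adjusted p = 0.0389), and 0 fell, with a median of 0.087, list means of 4.54 to 4.67 in saline and 4.62 to 4.85 in tunicamycin legs, and a list change of 0.15 in mouse 1 and 0.19 in mouse 9. Cd4 passed without mouse 2 or mouse 6 but not without any other single mouse or without mice 1 and 9, nor after a further quantile normalization or at the probeset level. Among 7 B cell markers (median 0.049, list means 4.33 to 4.54 and 4.35 to 4.56) and 8 NK cell markers (median 0.050, list means 4.06 to 4.25 and 4.03 to 4.28) 0 rose and 0 fell. The list means of the T, B and NK cell markers lay below every array median, a level at which array signal is read less well. Of 5 platelet markers, read because platelets store P-selectin, 0 rose and 0 fell (median 0.19, list means 5.08 to 5.56 and 5.21 to 5.66). Ppbp had the largest change (0.53 ± 0.25, adjusted p = 0.196), and Gp9 was nearest to the threshold (0.19 ± 0.061, adjusted p = 0.068, higher in 8 of 9 mice). Pf4 was at 0.19 ± 0.16, Gp6 at 0.03 ± 0.053 and Itga2b at -0.02 ± 0.061. Of these markers 3 rose without mice 1 and 9 and 1 without either mouse alone. Of 8 satellite cell markers, read because these muscle precursors make Vcam1, 0 rose and 0 fell (median 0.011, list means 6.26 to 6.53 and 6.31 to 6.55). Of 9 fibroblast markers 2 rose, the collagen genes Col3a1 (0.72 ± 0.13) and Col1a2 (0.27 ± 0.079), and the complement regulator Cd55 fell (-0.18 ± 0.054, adjusted p = 0.0470). Col1a2 passed with 1 mouse left out only where that was mouse 9 and Cd55 only where it was mouse 1 or 2, and neither passed without the mouse block, after a further quantile normalization or at the probeset level. That list had a median of 0.060 and means of 7.56 to 7.88 and 7.43 to 8.08. Of 10 muscle fibre markers 0 rose and 0 fell (median -0.027).

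**Figure D5:**
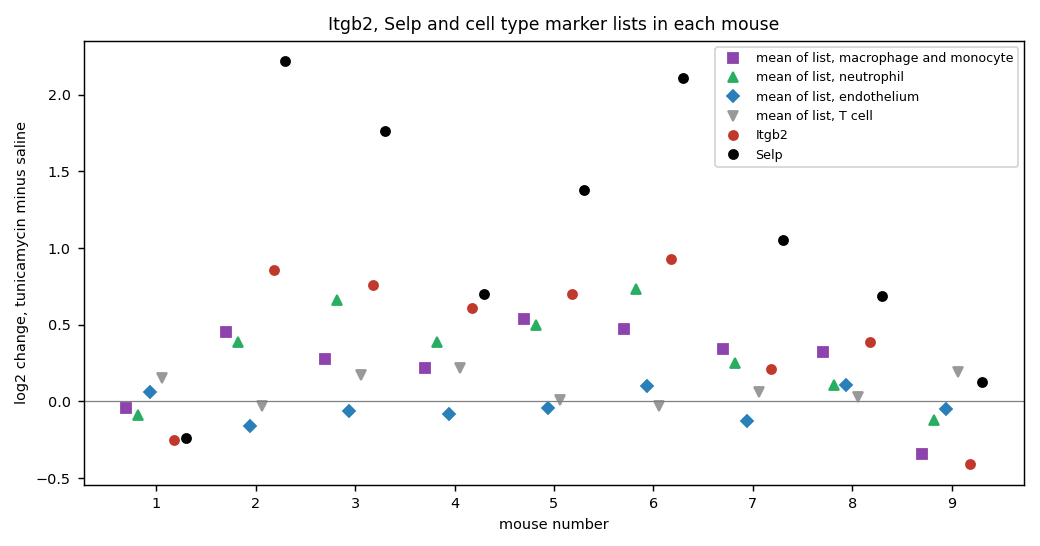
Log2 change (tunicamycin minus saline leg) of Itgb2, Selp and the mean of 4 marker lists in each mouse, with mouse number on the horizontal axis. Itgb2 and the macrophage and neutrophil lists are below 0 in mice 1 and 9 and above 0 in mice 2 to 8, and the endothelial list stays between -0.16 and 0.11.

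The genes whose 9 within-mouse changes were most like those of a member were found by Pearson's r among 18684 named genes. With so many genes and 9 mice a high r is easily reached, so they are given as a description. Plek, the pleckstrin of platelets and leukocytes, was among the first 3 for both Itgam (r = 0.986) and Itgb2 (r = 0.984), and itself rose by 0.73 (adjusted p = 0.0244). Itgam was also followed by Igsf6 (0.986) and the cytokine gene Il1b (0.976), and Itgb2 by the inhibitory receptor gene Lilrb4a (0.981), which rose by 1.37 (adjusted p = 0.0379). The first for Selp was Aatf (0.983), for Sele Litaf (0.978), for Icam1 Rnf213 (0.979), for Vcam1 Ism1 (0.935), for Icam2 Sec61b (0.927), for Selplg Cep83 (0.966), for Itgal Rhof (0.948) and for Itga4 Zfp74 (0.991). A high r does not mean that the gene rose. In limma Litaf (0.22, adjusted p = 0.0406) and Rnf213 (0.22, adjusted p = 0.0227) rose, whereas Zfp74 fell (-0.19, adjusted p = 0.0359). Aatf, Ism1, Sec61b, Cep83, Rhof, Igsf6 and Il1b did not pass.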

How the data were processed

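Total RNA of 18 gastrocnemius muscles was hybridised to MoGene-2_0-st Affymetrix arrays. The authors deposited log2 signals, 1 per probeset, computed in Partek by RMA, which corrects background, equalises the arrays by quantiles and summarises probes by median polish. No filter was stated. The values hold no detection call or depth, so precision is limited by the 9 arrays per group. Of 41345 probesets, 23521 carried 1 gene symbol and were averaged to 22180 genes. Probesets of several symbols were not used.

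The 2-sided moderated test of limma (version 3.58.1, R version 4.3.3; lmFit and eBayes) took the mouse as block, and genes were called at a Benjamini-Hochberg adjusted p under 0.05 over all genes. Errors are moderated SE and intervals are 95%. The labels place both legs in 1 animal. Deviations of the legs of 1 mouse from the group means correlated at a median r of 0.122 (-0.039 to 0.35), against -0.013 for legs of different mice. Of 9 tunicamycin legs, 6 were most like the saline leg of their own mouse. In mice 1 and 9 r was -0.028 and -0.039, and there the pairing rests on the labels. Nothing else is known of batches.

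The 10 genes and all lists were chosen with earlier results of these data known. Lists come from general knowledge and overlap. Named are the 10 genes, up to 4 called genes per list and direction by p, and the 3 genes most like each member. Other genes named in the text (Itgb1, Itgax, Itgad, Cdh5, Pecam1, Flt1, Csf1r, Mertk, C1qa, C1qc, Ly6g, Itga2b, Pf4, Ppbp, Gp9 and Gp6) were chosen after their values were seen. Alternatives were no block, 2 other scalings, the brightest probeset, the probeset level, only genes above the median signal, weighted arrays, a robust prior with trend, and omitted mice.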

Additional observations from a re-analysis of the deposited data

Results flagged for a closer look

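Of 30 groups of 9 values (saline, tunicamycin and change for each of the 10 adhesion genes), 1 had a value far from the others. The saline leg of mouse 4 had an Icam1 signal of 6.73, and the next highest saline leg had 6.38, a gap of 0.495 of the range, just past Dixon's 95% critical value for 9 values. Chance gives about 1 such group in 20.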

How the results depend on the processing

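All 10 adhesion genes kept a positive change under every alternative in which they were tested. The number called, 3 in the reported test, was 2 after centring and at the probeset level, 5 without the mouse block, 5 after quantile normalization again, 6 among genes above the median signal (which leaves out Sele and Itgal), 7 with array weights and 8 without mice 1 and 9, and ran from 2 to 7 when single mice were left out. The calls of Selp and Itga4 were kept throughout. Icam1 no longer passed when the mouse block was dropped (0.25, 0.0757 as adjusted p), after centring (0.23, 0.0698) and at the probeset level (0.25, 0.0979). Without the block, Itgam (0.65, 0.0398), Itgb2 (0.42, 0.0417) and Itgal (0.16, 0.0362) passed. After quantile normalization again Itgam (0.67, 0.0483) and Itgb2 (0.44, 0.0468) passed, as they did among genes above the median signal (0.65, 0.0338, and 0.42, 0.0346), where Vcam1 also passed (0.21, 0.0419). With array weights Sele (0.38, 0.0336), Itgam (0.76, 0.0149), Itgb2 (0.49, 0.0164) and Itgal (0.18, 0.0345) passed. Without mice 1 and 9 Sele (0.51), Selplg (0.29), Itgam (1.00), Itgb2 (0.64) and Itgal (0.18) passed, a description only because these mice were chosen after the values were seen. Single mice left out gave changes of 0.20 to 0.29 for Icam1, 0.16 to 0.26 for Vcam1, 0.25 to 0.43 for Sele, 0.14 to 0.25 for Selplg, 0.56 to 0.81 for Itgam, 0.36 to 0.53 for Itgb2 and 0.13 to 0.19 for Itgal. The unadjusted sign-flip test passed Vcam1, Itgam, Itgb2 and Itgal at their reported changes.

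Over all genes 2410 were called (1047 higher, 1363 lower), with a split of 1108 and 1083 after quantile normalization again and of 802 and 1785 after centring, and 1304 to 2787 with single mice left out. In the pathway and marker lists 40 genes were called, 25 at the probeset level, 61 without mice 1 and 9 and 23 to 50 with single mice left out. The r of Icam1 with Itgal turned to -0.30 without mice 1 and 4 and to -0.11 without mice 1 and 9, the latter chosen after the data were seen, and that of Vcam1 with Itga4 to -0.06 without mice 4 and 6. The causes were not tested. Array signal is read less well at a low level, as for Sele, Itgal and Il6.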
